A study of Mus musculus with 22 samples.

Results

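Livers of mice that had received only saline were compared between day 3 and day 1, that is, between 2 groups without any drug. The comparison used 6 of the 22 arrays of the series, 3 livers of day 3 (72 h) and 3 livers of day 1 (24 h), chosen by the treatment and day in their labels. All animals were male C57BL6 mice, 8 weeks old. Saline was injected intraperitoneally every day as the vehicle, so that a liver of day 3 came from an animal with more injections behind it than a liver of day 1. The other arm of the same experiment, 3 livers of day 3 and 3 livers of day 1 from mice given diclofenac at 30 mg/kg daily, was used to estimate the spread and to set the same pair of days beside the saline result. The 5 saline livers of day 14 are given as values for a few genes, with no test against the other days. The labels state 5 animals per group and the study's methods state 6, whereas the arrays of days 1 and 3 number 3 per group, and no label ties an array to an animal, so that p-values measure the spread between these arrays. Day coincided with the number of injections and, as the control values below show, with the state of the RNA or the array run, and these cannot be told apart.

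The liver changes its gene expression with feeding, fasting, time of day and handling. In fasting or after stress, cortisol or corticosterone binds the glucocorticoid receptor, which enters the nucleus of hepatocytes and raises enzymes that break down amino acids and make glucose, such as Tat (tyrosine aminotransferase) and G6pc (the catalytic subunit of glucose-6-phosphatase), together with anti-inflammatory genes such as Tsc22d3, also known as GILZ, and Nfkbia, the inhibitor IkappaB-alpha. Insulin after a meal acts in the opposite sense on several of these genes and raises Angptl8, a secreted protein of lipid metabolism, whereas Angptl4, an inhibitor of lipoprotein lipase, is raised by fasting. These roles are background to the lists used here and not results of these arrays.

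Every array was made from whole liver on the Mouse 430 2.0 chip, and its values are MAS5 signals, a brightness on a linear scale with a trimmed mean of 500.0 on each array. The tissue was liver by its own markers. Alb averaged 50290 in day 3 livers and 50534 in day 1 livers, and the summed signal of 9 hepatocyte markers lay between 338912 and 372005 at day 3 and between 335202 and 366699 at day 1, while 10 neutrophil markers together reached 615 to 775 at day 3 and 884 to 1431 at day 1. Control probe sets of 3 kinds separated the days without overlap. The 18S rRNA controls had a mean log2 signal of 14.54 to 14.76 in day 3 livers and 11.76 to 12.41 in day 1 livers. The log2 ratio of 3′ to 5′ probe sets of Gapdh and Actb, which grows as RNA is shortened, was 0.74 to 0.83 at day 3 and 0.56 to 0.62 at day 1. The hybridisation controls, added equally to each array, were at 11.80 to 11.92 at day 3 and 11.98 to 12.15 at day 1. Each of these differences had p = 0.1 in a two-sided exact permutation test, which is the smallest that 3 against 3 arrays can give. In diclofenac livers the 18S controls (14.47 to 14.83 at day 3, 11.68 to 12.24 at day 1) and the 3′ to 5′ ratio (0.76 to 0.95 at day 3, 0.56 to 0.60 at day 1) separated the days in the same way, whereas their hybridisation controls overlapped (11.94 to 12.24 at day 3, 12.08 to 12.34 at day 1). Taken alone, the Gapdh ratio separated the days in both arms. The Actb ratio overlapped in diclofenac livers (1.281 to 1.604 at day 3, 1.259 to 1.325 at day 1). In saline livers the Actb ratio barely separated the days (1.435 to 1.516 at day 3, 1.213 to 1.434 at day 1). The poly-A controls added to the RNA overlapped in both arms, with means of 7.79 at day 3 and 7.83 at day 1 in saline livers (exact permutation p = 0.4). The part of these shifts in the gene results was not tested.

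**Figure D1:**
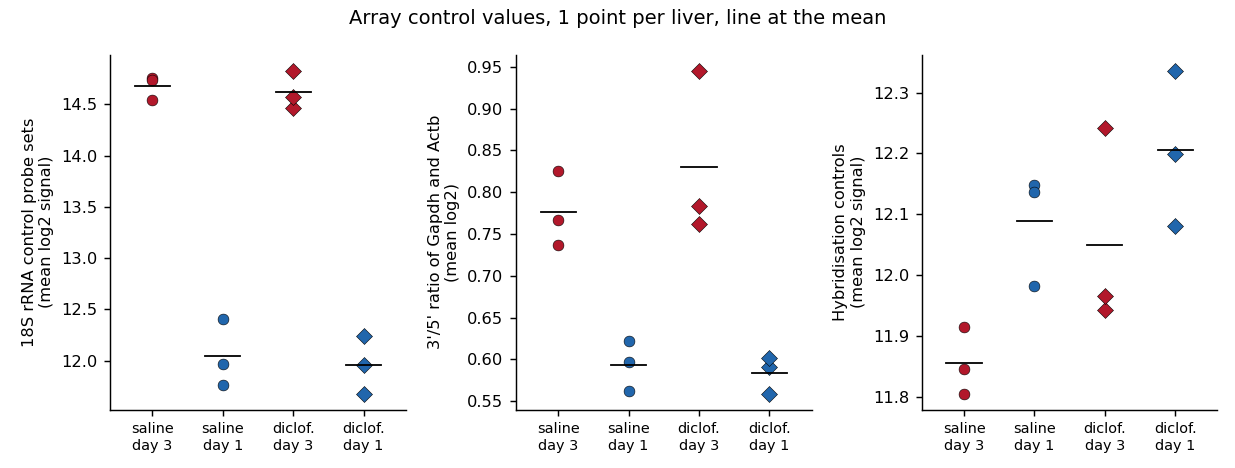
Mean log2 signal of the 18S rRNA control probe sets (left), mean log2 ratio of 3′ to 5′ probe sets of Gapdh and Actb (middle) and mean log2 signal of the hybridisation controls (right), 1 point per liver with a line at the mean of the group, for saline and diclofenac livers of days 3 and 1. The 18S controls lie between 14.54 and 14.76 in the saline livers of day 3 and between 11.76 and 12.41 in those of day 1.

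Of 12900 genes tested, 28 differed between day 3 and day 1 in saline livers at an adjusted p under 0.05 (limma, Benjamini-Hochberg over all genes), which is 0.217% of those tested. Signals were higher at day 3 for 20 of them (0.155%) and lower for 8 (0.062%), and for all 28 the 3 livers of day 3 lay on 1 side of the 3 livers of day 1. Over all genes tested, the day 3 livers lay entirely above the day 1 livers for 8.67% and entirely below for 12.2%, and the median log2 difference was -0.04. Among the 28, the difference was over 1.5-fold for 26 and over 2-fold in 11. The number of calls depended on single arrays. It was 1, 14 and 3 without day 1 replicate 1, 2 or 3, 4, 4 and 3 without day 3 replicate 1, 2 or 3, 131 without replicate 2 of the diclofenac livers of day 1, and 13 and 16 without replicates 1 and 2 of the diclofenac livers of day 3. A fit without the intensity trend of the variance called 0 genes (lowest adjusted p 0.0888, 1278 genes at an unadjusted p under 0.05), averaging all probe sets of a gene called 3, and median centring of the arrays called 18 higher and 3 lower, against 20 and 8.

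**Figure D2:**
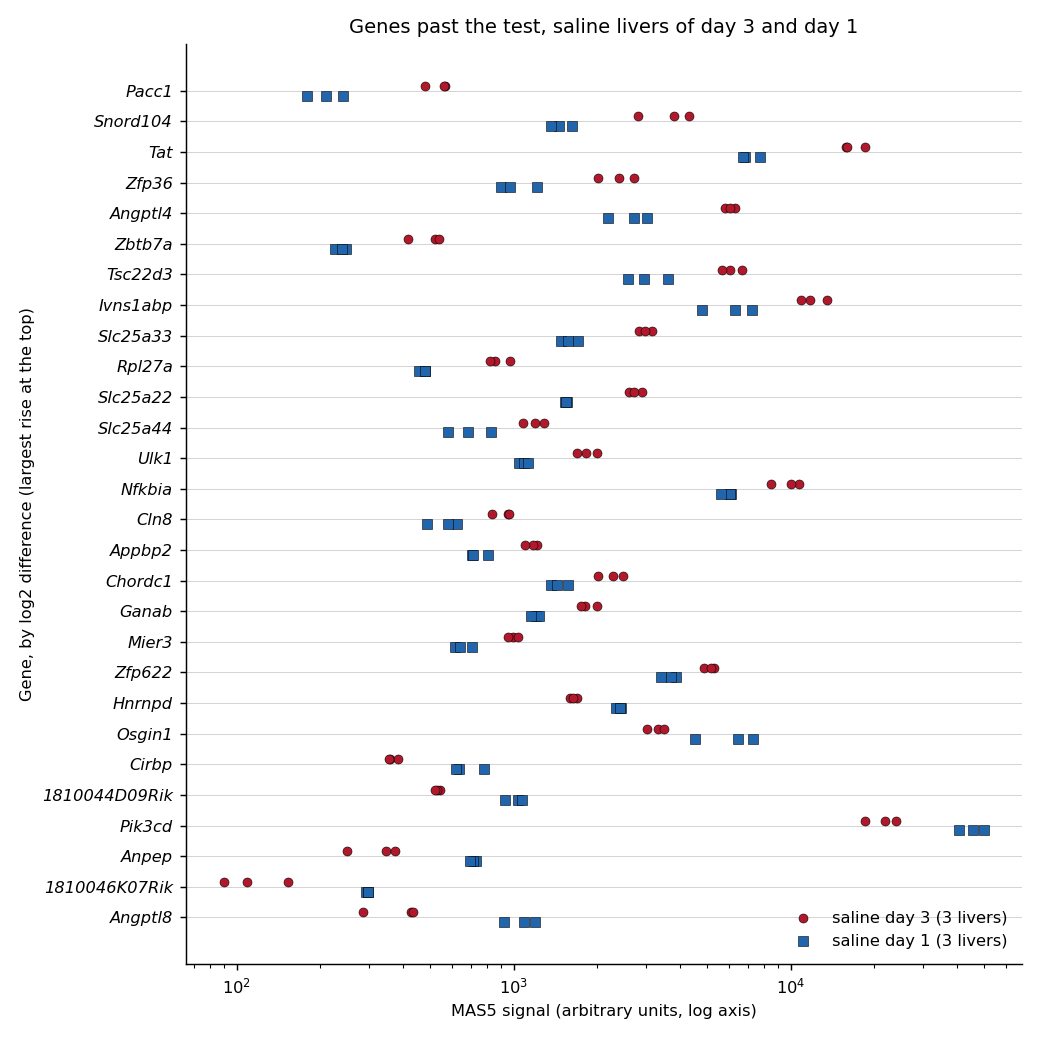
MAS5 signal (horizontal log axis, arbitrary units) of the 28 genes past the test, 1 point per liver, red circles for the 3 saline livers of day 3 and blue squares for the 3 of day 1. Genes are ordered by their log2 difference, from Pacc1 (1.35) at the top to Angptl8 (-1.51) at the bottom, and in no gene do the days overlap.

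Angptl8 was lower and Angptl4 higher at day 3. Angptl8 had signals of 425, 286 and 433 in day 3 livers, against 1196, 1093 and 924 in day 1 livers. It fell by 1.51 on the log2 scale (SE 0.18, adjusted p = 0.00755, limma), the largest fall of the 28, and kept its call in 11 of 12 fits that left out 1 array each. Angptl4 had signals of 5791, 6285 and 6047 at day 3, against 2723, 3039 and 2201 at day 1, and rose by 1.20 (SE 0.21, adjusted p = 0.049, limma), a call kept in 3 of those 12 fits. In the saline livers of day 14 the signals were 195 to 772 for Angptl8 and 6591 to 8573 for Angptl4, on the same side of the day 1 livers as at day 3. Other called genes differed in this. Mean log2 signals of Tat were 15.19 at day 14 and 12.79 at day 1, again higher as at day 3. Cirbp (9.66 at day 14, 9.40 at day 1) and Hnrnpd (11.50 and 11.23), both lower at day 3, were above day 1 at day 14. The poly-A controls of saline livers were at 7.74 to 7.89 at day 1, 7.74 to 7.82 at day 3 and 3.56 to 4.35 at day 14. The study reports that the saline mice of the longest treatment weighed less after the injections than before. The part of these differences in the day 14 signals was not tested.

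Genes that the glucocorticoid receptor raises in liver were mostly higher at day 3. Tat, which starts the breakdown of tyrosine, had signals of 15851, 18571 and 15983 in day 3 livers and 6856, 7747 and 6734 in day 1 livers, a log2 difference of 1.24 (SE 0.22, adjusted p = 0.049, limma). Tsc22d3, a leucine zipper protein that dampens inflammatory transcription, had 6044, 6708 and 5642 at day 3 and 2966, 3617 and 2599 at day 1, a difference of 1.01 (SE 0.15, adjusted p = 0.0351, limma). Nfkbia, which holds NF-kappaB in the cytoplasm, had 8519, 10749 and 10020 at day 3 and 6085, 6062 and 5604 at day 1 (0.72, SE 0.10, adjusted p = 0.0227, limma). With Angptl4, these were the 4 of the 23 tested members of the glucocorticoid list that passed the test, beside 0.217% of all genes tested. None of the 23 was called lower. The list's median log2 difference was 0.717, against -0.04 over all genes tested. Of its members 20 were positive and 3 were negative, and the day 3 livers lay entirely above the day 1 livers for 15 members and entirely below for 0, beside the 8.67% and 12.2% over all genes. The list is a selection made with earlier results of these arrays known, and so its direction is a description. Its count of calls was 0 without day 1 replicate 1 or 3 and without day 3 replicate 2 or 3, 1 without day 3 replicate 1, 2 without day 1 replicate 2, and 10 without replicate 2 of the diclofenac livers of day 1, while its median stayed between 0.651 and 1.027 over all 26 alternatives run.

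The largest differences of the list belonged to members that did not pass the test. Igfbp1, a binding protein of insulin-like growth factors, had signals of 10866, 20321 and 12637 at day 3 and 4151, 1428 and 2592 at day 1, a log2 difference of 2.50 (SE 0.64, adjusted p = 0.152, limma). G6pc had 4801, 7407 and 8566 at day 3 and 2605, 1483 and 1785 at day 1 (1.82, SE 0.40, adjusted p = 0.0854, limma). Lpin1, a phosphatidate phosphatase that also acts as a nuclear coactivator, had 18165, 20412 and 16700 at day 3 and 4435, 8447 and 5205 at day 1 (1.66, SE 0.32, adjusted p = 0.0644, limma). In each of the 3 genes the days did not overlap. Ddit4 (1.40), Cdkn1a (1.34), Noct (1.32), Dusp1 (1.31) and Per1 (1.13) had log2 differences above 1 with adjusted p from 0.0816 to 0.331, while Fkbp5 (0.05), Tdo2 (-0.03), Bcl6 (-0.20) and Lcn2 (-0.89) were near 0 or negative. The days overlapped for Fkbp5, a cochaperone of the receptor itself, which had signals of 3220, 3342 and 2566 in day 3 livers, against 2240, 3809 and 2909 in day 1 livers.

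**Figure D3:**
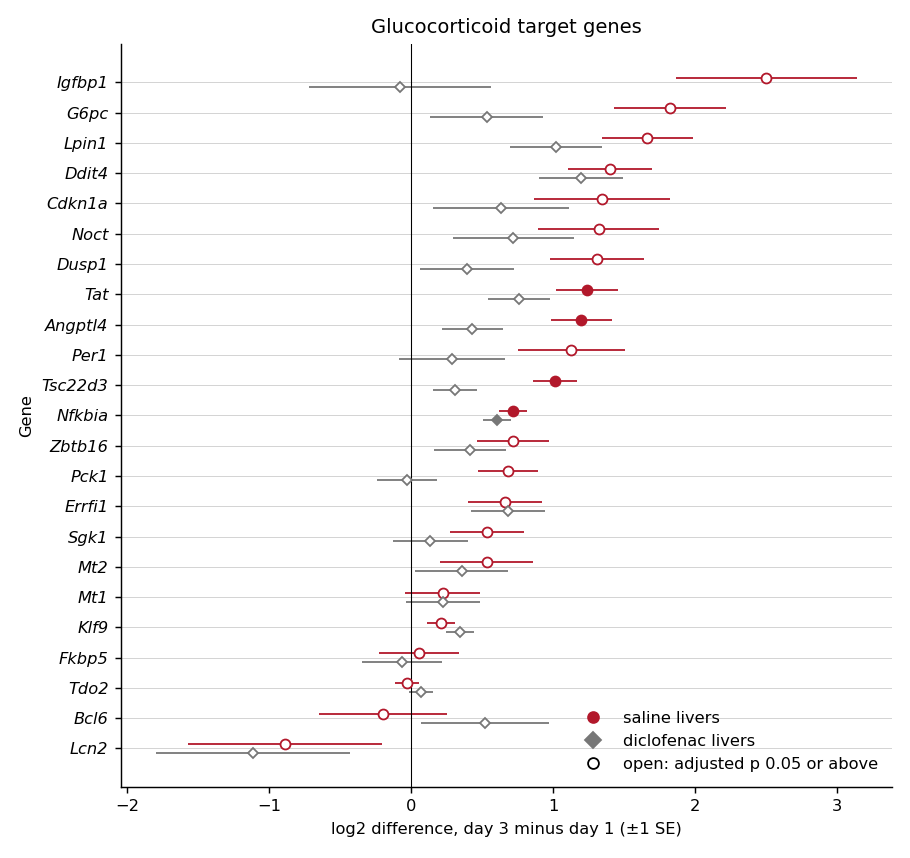
Log2 difference between day 3 and day 1 (horizontal axis, bars ±1 SE of the limma fit) for the 23 tested members of the glucocorticoid list, red circles for saline livers and grey diamonds for diclofenac livers, filled where the adjusted p was under 0.05. Of the saline values 20 lie right of 0 and 4 are filled, and the list's median is 0.717 in saline livers and 0.39 in diclofenac livers.

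When the spread was taken from the 6 saline arrays alone, 165 of 11889 genes passed (1.39%), 93 higher at day 3 (0.782%) and 72 lower (0.606%), and all 28 genes above were among them. In that fit 9 members of the glucocorticoid list passed, all higher: Tat, Angptl4, Tsc22d3, Nfkbia, Lpin1 (adjusted p = 0.00487, limma), Ddit4 (0.00506), G6pc (0.00614), Igfbp1 (0.00942) and Cdkn1a (0.0205). Ass1, which makes argininosuccinate in the urea cycle, had signals of 552, 809 and 825 at day 3 and 209, 252 and 260 at day 1 (log2 difference 1.58), and its adjusted p was 0.00458 with 6 arrays and 0.0755 with 12. Ppp1r3g, a glycogen-targeting subunit of protein phosphatase, had 302, 426 and 209 at day 3 and 49.3, 99.0 and 62.7 at day 1 (2.15, adjusted p = 0.0216 with 6 arrays, 0.272 with 12). Its signal exceeded the array median in 3 saline livers of day 3 but in only 1 of day 1. It thus passed the filter on low signals through the day 3 livers, and its p-values are a description only. Alas1, the first enzyme of haem synthesis, had 12601, 10614 and 15494 at day 3 and 6924, 5994 and 4969 at day 1 (1.11, adjusted p = 0.008 with 6 arrays, 0.152 with 12). Gadd45a, a growth arrest gene, went the other way, with 241, 181 and 140 at day 3 and 623, 502 and 621 at day 1 (-1.66, adjusted p = 0.00576 with 6 arrays, 0.068 with 12). Malat1, a nuclear noncoding RNA, had 5246, 6012 and 5943 at day 3 and 2986, 2967 and 2019 at day 1 (1.13, adjusted p = 0.00614 with 6 arrays, 0.116 with 12).

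Carriers of the inner mitochondrial membrane held the smallest p of the comparison. Slc25a22, a glutamate carrier, had signals of 2912, 2610 and 2725 in day 3 livers and 1529, 1553 and 1548 in day 1 livers, and rose by 0.83 (SE 0.10, adjusted p = 0.00755, limma), a call kept in 11 of 12 fits that left out 1 array. Slc25a33, a pyrimidine nucleotide carrier, had 3166, 2845 and 2987 at day 3 and 1713, 1481 and 1571 at day 1 (0.92, SE 0.17, adjusted p = 0.049, limma). These were the 2 of 25 tested members of the list of carriers and import proteins that passed, beside 0.217% of all genes tested. Of that list 0 were called lower, and its median was 0.075. The day 3 livers lay entirely above the day 1 livers for 9 members and below for 2, beside 8.67% and 12.2% of all genes. Slc25a44, a branched-chain amino acid carrier outside that list, had 1192, 1077 and 1283 at day 3 and 684, 830 and 578 at day 1 (0.78, adjusted p = 0.049, limma). A second probe set of Slc25a44 gave 0.54, and the dimmest of the 3 gave -0.94, so that the call rests on the brighter ones. Ulk1, the kinase that starts autophagy, had 1825, 1695 and 2006 at day 3 and 1044, 1089 and 1126 at day 1 (0.76, adjusted p = 0.049, limma).

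The immediate early list and the splicing and RNA-binding list held 3 called genes between them. Zfp36 (tristetraprolin), which marks such messages for decay, had signals of 2403, 2022 and 2714 at day 3 and 898, 1214 and 971 at day 1, a rise of 1.21 (SE 0.20, adjusted p = 0.0478, limma). It was the only one of 34 tested immediate early genes past the test, beside 0.217% of all genes tested. The list's median was 0.031. Hnrnpd (AUF1) had 1697, 1600 and 1634 at day 3 and 2446, 2348 and 2416 at day 1, and fell by 0.55 (SE 0.09, adjusted p = 0.0478, limma). Cirbp, an RNA-binding protein induced by cold, had 358, 382 and 355 at day 3 and 634, 620 and 781 at day 1, and fell by 0.89 (SE 0.15, adjusted p = 0.0478, limma). Hnrnpd and Cirbp were the 2 of 29 splicing and RNA-binding genes called, beside 0.217% of all genes tested. The median of that list was 0.064.

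The heat shock list, which holds Cirbp, had 1 member that rose and 1 that fell. Chordc1, a cochaperone of HSP90, had signals of 2281, 2014 and 2476 at day 3 and 1566, 1365 and 1429 at day 1, and rose by 0.63 (SE 0.11, adjusted p = 0.049, limma). Chordc1 and Cirbp were the 2 of 25 tested members that passed. The list's median was 0.293, 20 members were positive and 5 negative, and the day 3 livers lay entirely above the day 1 livers for 9 members and entirely below for 1, beside 8.67% and 12.2% of all genes tested and 0.217% past the test. Hsph1 (1.08, adjusted p = 0.0662, limma) and Hspa1b (1.01, adjusted p = 0.17, limma), a pair of heat shock proteins named after their values were seen, passed when the 6 saline arrays were fitted alone.

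Other genes past the test had no list in common. Ivns1abp, which binds an influenza virus protein and actin, had signals of 13510, 11712 and 10867 at day 3 and 4797, 7240 and 6286 at day 1 (0.99, adjusted p = 0.0351, limma). Osgin1, an oxidative stress response gene, had 3332, 3021 and 3504 at day 3 and 7328, 4522 and 6435 at day 1, and fell by 0.87 (adjusted p = 0.049, limma). It was the only called one of 23 NRF2 targets, beside 0.217% of all genes tested. Anpep, the membrane aminopeptidase N, had 345, 374 and 250 at day 3 and 729, 715 and 695 at day 1, and fell by 1.16 (adjusted p = 0.0352, limma). Snord104, a small nucleolar RNA by the chip's annotation, had 3793, 2807 and 4284 at day 3 and 1621, 1456 and 1367 at day 1 (1.27, adjusted p = 0.0352, limma). Ganab, a subunit of glucosidase II of the endoplasmic reticulum, rose by 0.63, the ribosomal protein gene Rpl27a by 0.90 and Mier3 by 0.61, with adjusted p between 0.0351 and 0.049 (limma).

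Several calls rested on 1 probe set out of several. The probe set annotated to Pik3cd, a leucocyte phosphoinositide kinase, had signals of 18511, 21863 and 24057 at day 3 and 50143, 40679 and 45676 at day 1, and fell by 1.09 (adjusted p = 0.00755, limma). Its 5 other probe sets averaged 6.5 to 107.5 at day 3 and 16.8 to 90.4 at day 1, so that the level belongs to that probe set, and whether it measures Pik3cd is uncertain. The same probe set is the one counted for diclofenac livers below. Pacc1, a proton-activated chloride channel, rose by 1.35 on the brightest of 5 probe sets (567, 477 and 562 at day 3, 211, 241 and 180 at day 1), whereas the other 4 were near the array medians or below them and gave -1.46 to 0.37. For Tsc22d3, a pair of further probe sets above the array median in all 6 livers gave 0.51 and 0.11, and the mean over its probe sets gave 0.27 without a call. Zfp622 rose by 0.48 on its brightest probe set and had negative values on its other 4. For Zbtb7a (1.03), 1810044D09Rik (-0.93) and Hnrnpd (-0.55), a further probe set above the array median in all 6 livers gave -0.19, 0.00 and -0.16. The further probe sets of that brightness gave 0.045, 0.133 and 0.219 for Appbp2 (0.65) and 0.31 to 0.48 for Nfkbia (0.72).

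The same pair of days was also compared in livers of diclofenac-treated mice, which share no array with the saline livers but share the day. In diclofenac livers 74 of 12900 genes (0.574%) passed, and 14 of the 28 saline genes were among them, 8 higher and 6 lower, each in the same direction. Both comparisons took the spread of a gene from the same fit, which favours genes of small spread in both arms, so the calls are not independent. When the 6 diclofenac arrays were fitted alone, 0 genes passed (lowest adjusted p 0.169, limma). By sign, 25 of the 28 matched. The diclofenac livers of day 3 lay entirely above those of day 1 for 15 of the 20 genes that rose and entirely below for 7 of the 8 that fell, beside 7.92% and 9.88% of all genes. Angptl8 (-1.31, adjusted p = 0.0167), Cirbp (-1.31, adjusted p = 0.00634), Anpep (-1.17, adjusted p = 0.0257), Hnrnpd (-0.70, adjusted p = 0.0158) and Chordc1 (0.99, adjusted p = 0.00634) were among those that passed in both arms (limma). Angptl8 had signals of 348, 488 and 455 in diclofenac livers of day 3 and 1114, 1066 and 996 in those of day 1. Since the shift of the 18S and 3′ to 5′ controls was also shared, agreement between the arms cannot be told apart from array processing.

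**Figure D4:**
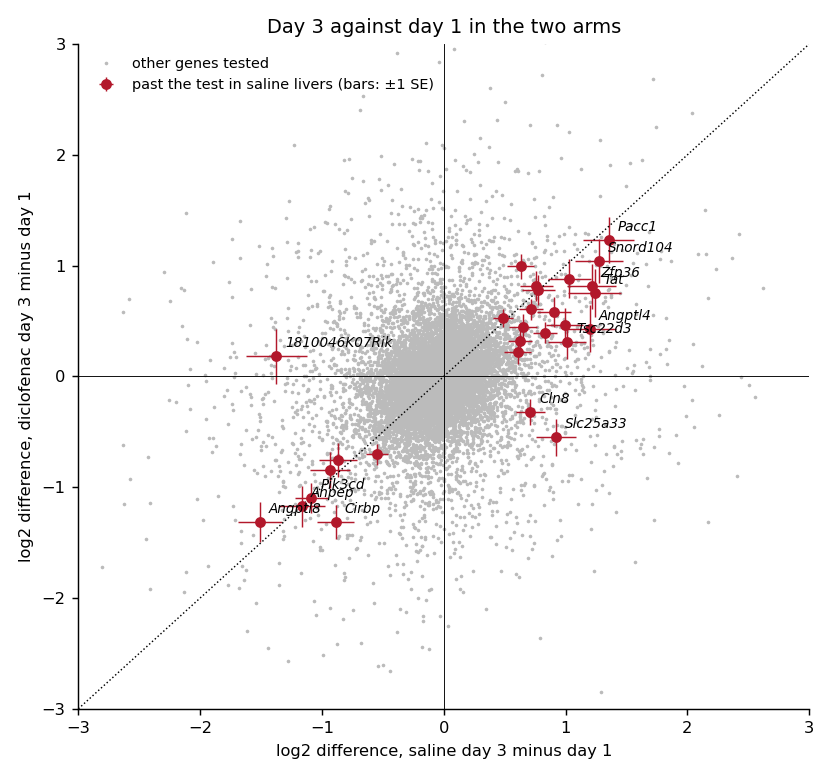
Log2 difference between day 3 and day 1 in saline livers (horizontal axis) and in diclofenac livers (vertical axis), 1 point per gene, grey for the genes tested and red with ±1 SE for the 28 past the test in saline livers, with a dotted line of equality. Of the red points 25 have the same sign in both arms, and Cln8, Slc25a33 and 1810046K07Rik do not.

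In the diclofenac arm 1 of the 23 members of the glucocorticoid list, Nfkbia, passed the test (0.60, adjusted p = 0.0277, limma), beside 0.574% of all genes. The list's median there was 0.39, 19 members were positive, and the day 3 livers lay entirely above the day 1 livers for 5 members and entirely below for 0, beside 7.92% and 9.88% of all genes. Tsc22d3 had 3289, 2442 and 3773 in diclofenac livers of day 3 and 2598, 2559 and 2400 in those of day 1 (0.31, adjusted p = 0.365, limma). Tat had 15483, 11239 and 15938 at day 3 and 6794, 12968 and 6532 at day 1 in diclofenac livers (0.76, adjusted p = 0.14, limma). Replicate 2 of the diclofenac livers of day 1 stood apart, with an Igfbp1 signal of 34187, against 6663 and 4821 in the other livers of its group, and an S100a9 signal of 7632, against 363 and 402. Without that liver the list's median in diclofenac livers was 0.579 and 22 of 23 members were positive. Igfbp1 is itself a member of the list. Leaving out a day 1 liver picked for a high Igfbp1 raises the list's differences in part by that choice, so these values are no support for the saline result.

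No gene passed the test of the difference between the arms in their change (lowest adjusted p 0.275, 684 genes at an unadjusted p under 0.05, limma). Cln8, a protein of the endoplasmic reticulum, and Slc25a33 had that lowest adjusted p. Cln8 had signals of 955, 962 and 836 in saline livers of day 3 and 623, 487 and 579 in those of day 1, and all 4 of its probe sets gave positive differences of 0.35 to 0.71. In diclofenac livers Cln8 had 644, 652 and 630 at day 3 and 848, 819 and 744 at day 1, a log2 difference of -0.32. The corresponding values of Slc25a33 in diclofenac livers were 1343, 1469 and 1838 at day 3 and 2626, 2595 and 1673 at day 1 (-0.55).

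Most other gene lists had medians near that of all genes tested. No core clock gene passed among 12 tested, 6 were positive and 6 negative, and the median was -0.028. Arntl had 295, 494 and 600 at day 3 and 399, 282 and 242 at day 1, Nr1d1 had 400, 306 and 193 at day 3 and 323, 288 and 406 at day 1, and the days overlapped in both. Per1, also a member of the glucocorticoid list, had 702, 586 and 569 at day 3 and 382, 341 and 173 at day 1 (1.13, adjusted p = 0.285, limma). Sterol synthesis genes had 0 of 20 called, 19 negative values and a median of -0.317, against 0.094 in diclofenac livers. Female-biased liver genes, with 9 tested, had 0 called, 4 positive and 5 negative values and a median of -0.754, against 0.231 in diclofenac livers. Interferon response genes had 0 of 32 called, 29 negative values and a median of -0.279, against -0.242 in diclofenac livers. Irgm2, an immunity-related GTPase, had 801, 863 and 1153 at day 3 and 1888, 1562 and 1837 at day 1 (-0.92, adjusted p = 0.322, limma). Acute phase genes had 0 of 31 called, 10 positive and 21 negative values and a median of -0.097, against -0.033 in diclofenac livers. Of these, Saa2 had 1682, 1307 and 1063 at day 3 and 6405, 1847 and 19235 at day 1 (-2.20, adjusted p = 0.155, limma). In diclofenac livers its log2 difference was -0.23. For Saa1 the days overlapped (-1.20, adjusted p = 0.227, limma). Fasting and PPARα targets had 1 of 28 called, Angptl4, beside 0.217% of all genes tested, and a median of 0.102. Fatty acid synthesis genes had 0 of 19 called and a median of 0.125. Srebf1, the regulator of that pathway, had 3302, 2184 and 2589 at day 3 and 4714, 3690 and 4589 at day 1 (-0.70, adjusted p = 0.438, limma).

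**Figure D5:**
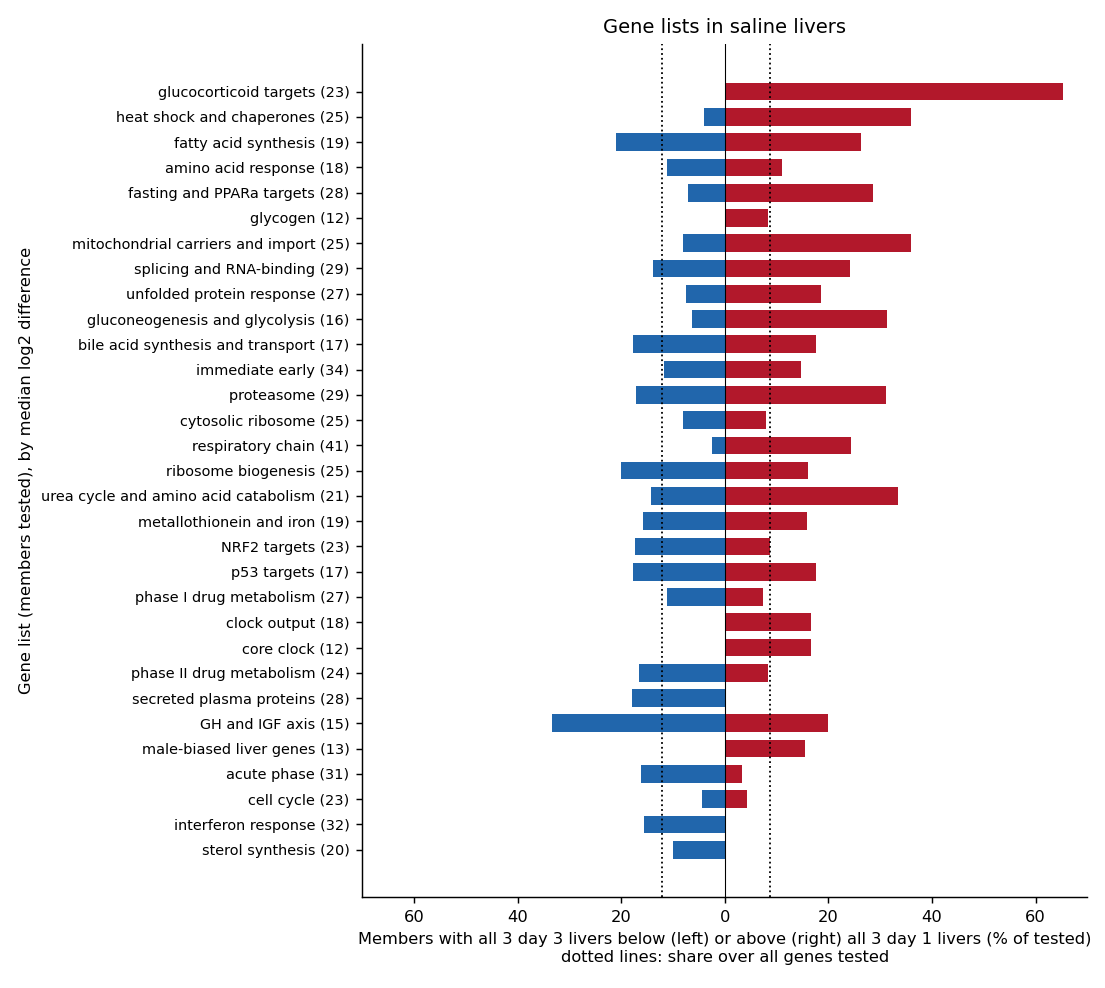
For each pathway list with at least 10 members tested (cell type markers are not plotted), the percentage of members whose 3 saline livers of day 3 lay all above (right, red) or all below (left, blue) the 3 of day 1, ordered by median log2 difference, with dotted lines at the shares over all genes tested, 8.67% above and 12.2% below. The glucocorticoid list reaches furthest to the right with 15 of 23 members, and the interferon, sterol and secreted plasma protein lists have 0 members on that side.

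Markers of other cell types gave no call apart from Tat in the hepatocyte list. The summed signal of a marker list separated the days for 5 of 20 lists, 1 above and 4 below, which is near the shares of single genes that did so (8.67% and 12.2%). Stellate cell and fibroblast markers (14 tested) summed to 20368 to 24709 at day 3 and 24909 to 30902 at day 1, and the neutrophil sum given above was likewise lower at day 3. Erythroid markers (3 tested) summed to 1865 to 1910 at day 3 and 2298 to 2639 at day 1, and muscle markers (5 tested) to 206 to 391 at day 3 and 398 to 518 at day 1. Sinusoidal endothelial markers (15 tested) summed to 19272 to 20422 at day 3 and 16873 to 19006 at day 1. In diclofenac livers 4 of these sums overlapped between the days, and the muscle sum lay the other way (458 to 519 at day 3, 271 to 381 at day 1). Muscle and neutrophil markers were dim. In the saline livers of day 3, Pvalb (muscle) and Ltf (neutrophil) exceeded the array median in 0 livers. Ckm (muscle) and S100a9 (neutrophil) did so in 1. The muscle and neutrophil sums thus lie near background and are no measure of cells. The erythroid sum was mostly Alas2, which averaged 1511 at day 3 and 1991 at day 1. In whole liver, fewer cells of a type and less RNA per cell cannot be told apart.

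The sequence before the start site was read for the genes past the test and for the glucocorticoid list, as a description of these promoters. Of the 28 genes 24 had a RefSeq promoter of 300 bases (build GRCm38.p6, 250 bases before the start and 50 after), and of the glucocorticoid list 21 of 23. Motifs were searched on both strands. The letters of the glucocorticoid response element (GNACA and TGTNC with 3 bases between), an imperfect palindrome that the receptor binds as a dimer, stood in 2 of the 21 list promoters, Sgk1 and Mt1, in 0 of the 24 promoters of called genes, and in 0.374% of the promoters of genes tested. Sgk1 had signals of 1318, 1306 and 1744 at day 3 and 990, 960 and 1043 at day 1 (0.53, adjusted p = 0.526, limma), and Mt1 had 32147, 42991 and 17827 at day 3 and 18966, 30890 and 26652 at day 1 (0.22, adjusted p = 0.827, limma). Tat and Tsc22d3, which passed the test, had no match in this window. A heat shock element (GAA, TTC and GAA with 2 bases between each) stood at the start site of Chordc1, where 3 overlapping matches began at positions -4, 2 and 7, and in 0.604% of the promoters of genes tested. Angptl8 held 1 match to the amino acid response element TGATGNAAT, at -130, which 0.595% of those promoters held. These 4 promoter stretches are shown because they carry the matches named here, with the matching bases in capitals.
Chordc1, chr9:18292157-18292291, plus strand: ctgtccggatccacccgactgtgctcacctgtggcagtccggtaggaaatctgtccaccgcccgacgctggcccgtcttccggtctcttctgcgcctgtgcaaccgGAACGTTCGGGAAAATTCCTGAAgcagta
Sgk1, chr10:21993650-21993779, plus strand: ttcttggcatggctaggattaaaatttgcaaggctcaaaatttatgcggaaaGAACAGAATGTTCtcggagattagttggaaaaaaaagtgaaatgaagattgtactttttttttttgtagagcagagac
Mt1, chr8:94178939-94179068, plus strand: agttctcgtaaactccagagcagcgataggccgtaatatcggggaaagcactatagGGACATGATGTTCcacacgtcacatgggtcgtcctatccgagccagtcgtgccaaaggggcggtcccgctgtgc
Angptl8, chr9:21835320-21835449, plus strand: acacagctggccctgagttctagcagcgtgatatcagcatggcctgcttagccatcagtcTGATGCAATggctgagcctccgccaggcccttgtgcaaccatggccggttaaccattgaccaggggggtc
The E-box CACGTG, to which the clock activators bind, was found in 2 of 16 promoters of genes that rose (12.5%) and in 1 of 8 that fell (12.5%), against 11.5% of the promoters of genes tested. The cAMP response element TGACGTCA was found in 2 of 16 (12.5%), Appbp2 and Rpl27a, and in 1 of 8 (12.5%), 1810044D09Rik, against 3.27%. The ROR element TAGGTCA stood in 1 of 16, Ivns1abp (6.25%), and in 0 of 8, against 2.54%, and the D-box (TTATGTAA or TTACGTAA) and the sterol element TCACNCCAC stood in none of the 24. None of the matches named overlapped a match to another motif.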

How the data were processed

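Total RNA of whole mouse liver was hybridised to Affymetrix Mouse 430 2.0 arrays, and the deposited values are MAS5 signals, an intensity on a linear scale that the authors scaled to a trimmed mean of 500.0 on every array (2% left out at each end), with no genome build involved. The MAS5 version is not given in the sources used here. Of 45101 probe sets, 34958 carried 1 gene symbol, 932 several and 9211 none. Signals were taken to log2, each gene was represented by its probe set of highest mean, and 12900 genes were kept whose signal exceeded the median of the array in 3 or more of the 12. MAS5 subtracts mismatch probes, so that dim signals vary strongly on the log2 scale.

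limma 3.58.1 in R 4.3.3 (lmFit, eBayes with trend) was fitted to the 12 arrays of days 1 and 3 in 4 groups, two-sided, with Benjamini-Hochberg adjustment over all genes tested. The fit was tested on simulated data. The study's own tests compared drug with vehicle. A first analysis of the study used Welch's test at p under 0.05 and over 1.5-fold, which was run as an alternative. A second used a hypergeometric test at p under 0.01 and at least 1.5-fold. Its thresholds, but not its test, were applied to unadjusted limma p-values as a further alternative. Replicate numbers did not pair the arrays, since 0 of 18 pairs of equal number had residuals correlated above 0.1. Array control values were tested by exact permutation over arrays. The number of arrays limits the precision. The arrays compared, the gene lists and the rule for naming genes were chosen with earlier results of these data known. Genes named were those past the test, the members of the core clock and glucocorticoid lists, and up to 2 genes of smallest p in a list without a call. No list was tested as a set.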

Additional observations from a re-analysis of the deposited data

Results flagged for a closer look

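Replicate 1 of the saline livers of day 14 had a mean log2 signal of 15.8 on the 18S rRNA controls, against 15.2 to 15.3 in the 4 others of its group, a gap larger than Dixon's limit for 5 values. Of 32 sets of 5 values examined in this group, for the 28 genes past the test and 4 control measures, 1 was past that limit, and about 1 in 20 would pass it with no cause at all. Groups of 3 arrays were too small for such a test, and no gene passed the test of a difference between the arms (684 at an unadjusted p under 0.05, and 2 past it without diclofenac day 1 replicate 3, limma).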

How the results depend on the processing

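The count of 28 genes in saline livers was 14 without a filter on low signals, 3 with the mean of probe sets (2 of them among the 28), 103 probe sets with each tested on its own, 165 with the 6 saline arrays only, 0 with no variance trend, 227 with array weights, 276 by the methods' Welch test at their p and over 1.5-fold, 1 by that test after Benjamini-Hochberg, and 194 by an unadjusted limma p under 0.01 and at least 1.5-fold. Leaving out 1 array gave 1 to 131, the lowest without saline day 1 replicate 1 and the highest without diclofenac day 1 replicate 2. The filter at the 60th percentile, quantile normalization, median centring, adding the array median and the fit of all 22 arrays gave 21 to 33. The count of 74 in diclofenac livers was 41, 19, 207, 0 (6 arrays of the arm, 1221 at an unadjusted p under 0.05) and 4 under the first 5 of those alternatives, 264, 0 (871 at an unadjusted p under 0.05) and 274 under the last 3, 13 with median centring, 26 with all 22 arrays, and 4 to 143 leaving out 1 array (4 without diclofenac day 3 replicate 1, 143 without diclofenac day 1 replicate 2). The count of 0 for the difference between arms was 0 to 2 leaving out 1 array (2 without diclofenac day 1 replicate 3). With the replicate number as a block, which does not pair these arrays, the counts were 4 in saline and 17 in diclofenac livers. Zfp622 alone among the 28 turned its direction, to -0.21 with the mean of probe sets. The causes were not tested.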
